A study of Mus musculus with 21 samples.

Results

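The genes described here are 6 markers of the formative and primed epiblast, the pluripotent tissue of the mouse embryo around and after implantation: Otx2, Pou3f1, Fgf5, Zic2, Foxd3 and Sall2. They were chosen by symbol, and each matched 1 of the 31053 Ensembl gene IDs in the count tables. Their transcript counts were followed across 21 RNA sequencing libraries of E14Tg2a, a male mouse embryonic stem (ES) cell line on a 129 background. In every library, controls included, 1 allele of Rex1 (Zfp42) carried a knocked-in destabilised green fluorescent protein, GFPd2. The study asked how changing the culture regimen bears on keeping ES cells pluripotent.

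The 7 groups of 3 libraries were named by medium and by a passage label. They were 2i+LIF PO, 2i+LIF LP, CH+LIF LP, LIF LP, 2i+LIF HP, CH+LIF HP and LIF HP. The cytokine LIF acts through STAT3. CH stands for CHIR99021, which blocks GSK3 and so raises Wnt/beta-catenin signalling, and PD for PD0325901, which blocks MEK, the kinase upstream of ERK. The name 2i usually stands for both inhibitors together. A single growth text covered all libraries: a first week in NDiff227 basal medium with both inhibitors, then a schedule in which CH, PD and LIF were given and taken away in turn at passages. PO, found with 2i+LIF alone, was read as zero passage, and LP and HP are used as names without a length of culture. All libraries came from 1 cell line, and nothing states that replicates were separate cultures, so p-values measure the spread between these libraries, which may be technical. By their file names the 3 PO libraries were sequenced in a run of their own, so run and PO cannot be told apart.

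Naive ES cells resemble the epiblast before implantation. On release from MEK inhibition, ERK signalling driven by the cells' own FGF moves them into a formative state, in which naive factors decline and a new set of transcription factors and enhancers takes over, before the primed state that answers to gastrulation signals. Otx2 is a homeodomain factor that redirects the pluripotency factors to formative enhancers, and Pou3f1 (also called Oct6) is a POU factor of the early postimplantation epiblast. Zic2 is a zinc finger factor bound at enhancers of ES and epiblast cells, Foxd3 is a forkhead factor needed to maintain the epiblast, and Sall2 is a zinc finger factor of the spalt family. Fgf5 encodes a secreted fibroblast growth factor and is the classical transcript of the egg-cylinder epiblast.

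Gene counts per library ranged from 1132126 to 3783043, with a median of 1763531, and a library detected 11312 to 14118 genes. The members gave few counts at such depth: over all 21 libraries Foxd3 gave 924, Zic2 532, Otx2 479, Sall2 101, Pou3f1 72 and Fgf5 28. The first 2i+LIF PO library stood apart, with 39.1% of its gene counts from mitochondrial genes. The first 2i+LIF LP library also stood apart, with 31.7% from Gm42418, which overlaps ribosomal RNA sequence. Differences of members from these groups that passed are given with and without both libraries. The ES cell markers Pou5f1, Sox2, Nanog, Zfp42, Esrrb and Klf4 had counts in all 7 groups, with summed levels of 949 to 2203 CPM (counts-per-million). Their sum was lowest in 2i+LIF HP, at 949 to 1308 CPM. It was 1748 to 2152 in PO, 1434.5 to 1607 in CH+LIF HP and 1460 to 1544 in LIF HP. Of the 6, 3 passed as lower in 2i+LIF HP than in PO, where 4.79% of all genes were lower. None passed between CH+LIF HP and 2i+LIF HP.

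The members lie on 3 chromosomes of GRCm38. Otx2 (ENSMUSG00000021848) spans chr14:48657677-48673819 on the minus strand and overlaps Otx2os1, which had no counts in any library. Zic2 (ENSMUSG00000061524) spans chr14:122475435-122479852 on the plus strand, 9758 bases from its relative Zic5 on the other strand. Sall2 (ENSMUSG00000049532) spans chr14:52311172-52328762 on the minus strand. Foxd3 (ENSMUSG00000067261) at chr4:99656299-99658622 and Pou3f1 (ENSMUSG00000090125) at chr4:124656807-124660655 are single-exon genes on the plus strand. Fgf5 (ENSMUSG00000029337) spans chr5:98254184-98277030 on the plus strand. Pou3f1 overlaps an antisense gene, Gm2164, which also had no counts. Because Otx2, Zic2 and Sall2 share chromosome 14, the level of that chromosome was measured: relative to the other autosomes its median gene lay between -0.19 and 0.09 log2 units in every library.

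RefSeq promoters on GRCm38.p6 were found for 4 of the 6 members, in 8 windows because Otx2 has 4 starts and Sall2 has 2. The 250 bases before each start were searched on both strands for the OTX core GGATTA, the POU octamer ATGCAAAT, the TCF/LEF core CTTTGA and the ETS core CCGGAA. Among 32851 promoters, 6.25% held the first, 1.60% the second, 13.8% the third and 12.0% the last. The promoters of the 2 members that differed between media at HP are shown: the Otx2 start with a match, on the minus strand at chr14:48665110-48665359 inside the gene's span, and Foxd3 on the plus strand at chr4:99656049-99656298. Capitals mark the OTX core, which is the element bound by OTX proteins themselves.
Otx2: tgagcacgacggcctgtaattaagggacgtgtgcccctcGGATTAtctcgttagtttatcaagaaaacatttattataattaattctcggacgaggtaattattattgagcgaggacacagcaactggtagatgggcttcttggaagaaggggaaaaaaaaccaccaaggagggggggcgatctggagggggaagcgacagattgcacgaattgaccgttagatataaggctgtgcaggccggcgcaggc
Foxd3: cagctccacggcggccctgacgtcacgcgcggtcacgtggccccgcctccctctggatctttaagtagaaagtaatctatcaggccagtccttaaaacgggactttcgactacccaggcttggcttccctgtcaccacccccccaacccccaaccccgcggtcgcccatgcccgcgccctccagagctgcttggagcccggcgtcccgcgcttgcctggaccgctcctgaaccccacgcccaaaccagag
The Otx2 match lay 211 bases before the start, and the other 3 Otx2 starts held none of the 4 motifs. The Foxd3 and Sall2 windows held none either, and Fgf5 held an ETS core 241 bases before its start.

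Otx2, the factor placed at the head of the formative programme, was present in PO, in every medium at LP and in CH+LIF at HP, and was low in 2i+LIF HP and LIF HP. In 2i+LIF PO its level was 5.28, 24.8 and 9.22 CPM in replicates 1 to 3 (mean 13.1 ± 10.3 SD, n = 3). At LP it was 6.31, 12.5 and 17.3 CPM in 2i+LIF (12.0 ± 5.52), 18.9, 15.1 and 20.5 in CH+LIF (18.2 ± 2.76), and 13.8, 7.30 and 13.0 in LIF (11.4 ± 3.53). The LP media lay within the range seen in PO. At HP it was 0.930, 3.27 and 1.92 CPM in 2i+LIF (2.04 ± 1.18), 29.2, 15.7 and 15.2 in CH+LIF (20.1 ± 7.92), and 0, 3.70 and 0 in LIF (1.23 ± 2.13). Every CH+LIF HP library was above every library of the other two HP media. In bulk RNA, fewer Otx2-positive cells and less Otx2 RNA per cell cannot be told apart.

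The test across all 10643 genes placed Otx2 in CH+LIF HP above 2i+LIF HP by 3.27 log2 units (SE 0.76, adjusted p = 0.0166, edgeR quasi-likelihood test with Benjamini-Hochberg adjustment, as for every adjusted p below). In LIF HP Otx2 was lower than in CH+LIF HP by a log2 fold change of -3.86 (SE 0.81, adjusted p = 0.0141, edgeR). From LP to HP in LIF it fell by 3.06 log2 units (SE 0.82, adjusted p = 0.0195, edgeR). In 2i+LIF the same step gave -2.55 (SE 0.76, adjusted p = 0.0587, edgeR), which missed the threshold although no library of the 2 groups overlapped. Without the 2 libraries that stood apart that adjusted p was 0.0108. In CH+LIF the step gave 0.14 (SE 0.61). Ordered by mean, the groups of Otx2 ran from CH+LIF HP through CH+LIF LP, PO, 2i+LIF LP and LIF LP to 2i+LIF HP and LIF HP. Only the step from LIF LP to 2i+LIF HP separated neighbours (adjusted p = 0.0403, edgeR).

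These Otx2 calls rest on few libraries. The excess of CH+LIF over 2i+LIF at HP missed the threshold without 2i+LIF HP replicate 1, 2i+LIF HP replicate 3 or CH+LIF HP replicate 1 (highest adjusted p 0.0906, edgeR). The lower level in LIF HP than in CH+LIF HP missed it without CH+LIF HP replicate 1, LIF HP replicate 1 or LIF HP replicate 3 (highest 0.0745). The fall in LIF missed it for Otx2 without LIF LP replicate 1, LIF HP replicate 1 or LIF HP replicate 3 (highest 0.0820). The direction was the same in each of these fits. All 6 counts of Otx2 in LIF HP came from replicate 2, so the size of its folds there rests on that library. Without it LIF HP had no Otx2 count, and the fitted log2 folds were -8.27 against CH+LIF HP, -7.48 against LIF LP and -7.69 against PO, values that depend on the prior count. Over the pooled counts, 6 in LIF HP and 98 in CH+LIF HP, the level was 18.5-fold lower in LIF (95% counting interval 8.18 to 51.5).

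**Figure D1:**
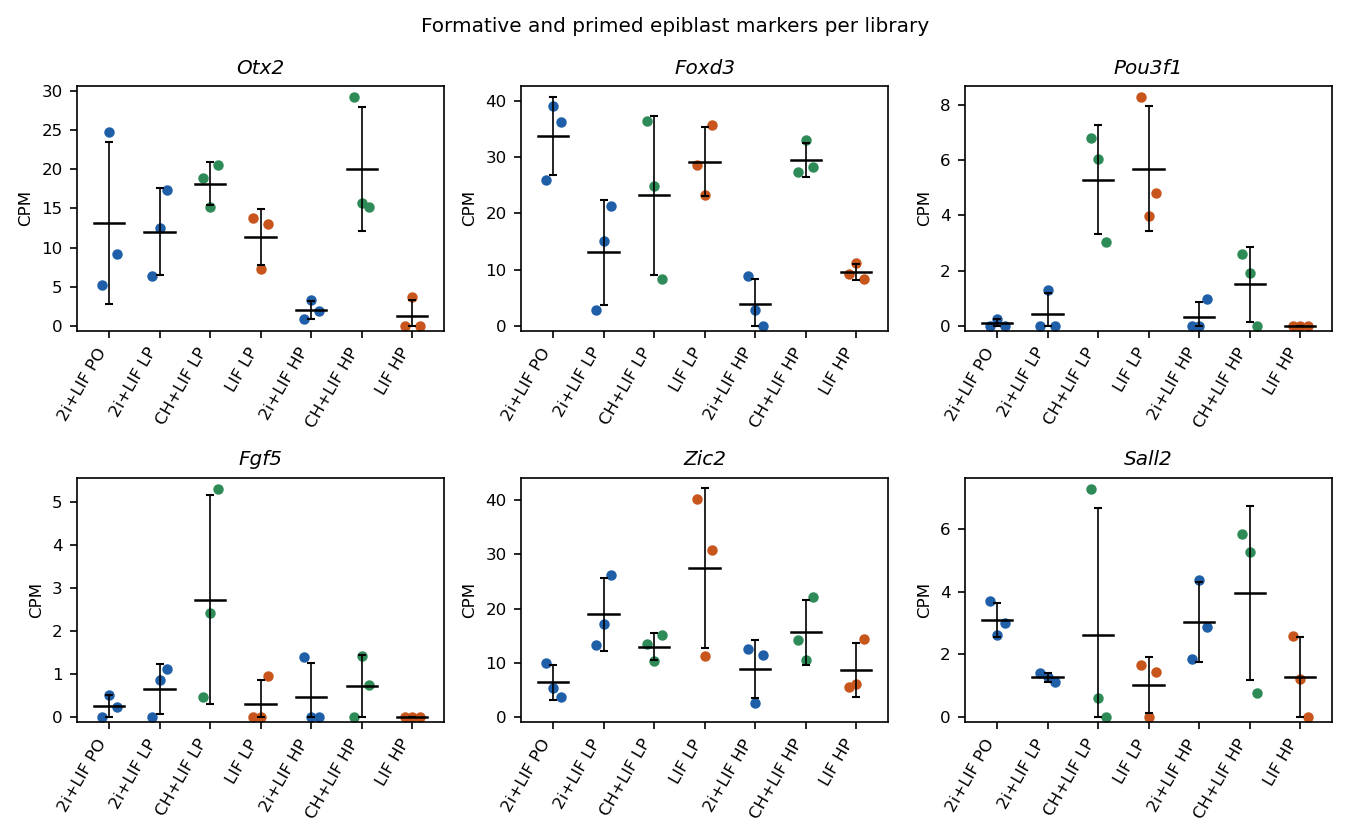
Level of each member in CPM (vertical axes, linear, a separate scale per gene) in the 7 groups. Points are single libraries coloured by medium, horizontal bars are means of 3 libraries and vertical bars are the SD, drawn no lower than 0; Otx2 lies at or below 3.70 CPM in all libraries of 2i+LIF HP and LIF HP and at or above 15.2 CPM in CH+LIF HP.

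Pou3f1 was seen almost solely outside 2i+LIF and was most abundant at LP. Its counts in 2i+LIF were 0, 1 and 0 at PO, 0, 3 and 0 at LP, and 0, 0 and 1 at HP. In CH+LIF they were 14, 10 and 4 at LP and 4, 4 and 0 at HP. In LIF they were 15, 6 and 10 at LP and 0, 0 and 0 at HP. As levels, CH+LIF LP held 5.29 ± 1.99 CPM and LIF LP 5.69 ± 2.27 CPM (SD, n = 3), and each of their libraries was above all libraries of 2i+LIF at LP or PO.

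The only fall of Pou3f1 with passage label that passed the test was in LIF: 31 pooled counts at LP against 0 at HP, at least 11.9-fold lower with 3 counts taken as the floor over the group (adjusted p = 0.0150, edgeR). It was lost without LIF LP replicate 1 or without any one of the LIF HP replicates (highest adjusted p 0.0747, edgeR). Pou3f1 did not pass the filter, and so was not tested, with counts thinned to the smallest library or when only those 2 groups were fitted. In CH+LIF, HP was below LP in every library, but the test gave a log2 fold change of -1.73 (SE 0.98) with an adjusted p of 1. At LP the pooled ratio to 2i+LIF was 10.9 in CH+LIF (95% counting interval 3.36 to 56.0) and 12.1 in LIF (3.78 to 62.0). Across libraries these media differences missed the threshold for Pou3f1 (adjusted p = 0.434 and 0.197, edgeR), and without the 2 libraries that stood apart they were 1 and 0.440. Intervals and floors cover counting error only.

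Zic2 was detected in all 21 libraries, with its highest mean in LIF LP and its lowest in PO. Its level was 10.0, 5.49 and 3.74 CPM in PO (6.42 ± 3.24, SD, n = 3). At LP it was 13.3, 17.2 and 26.3 CPM in 2i+LIF (18.9 ± 6.65), 13.6, 10.3 and 15.2 in CH+LIF (13.0 ± 2.50), and 40.2, 11.3 and 30.8 in LIF (27.4 ± 14.8). All 9 LP libraries exceeded the 3 PO libraries. At HP it was 12.5, 2.73 and 11.5 CPM in 2i+LIF (8.93 ± 5.39), 14.3, 10.5 and 22.1 in CH+LIF (15.6 ± 5.91), and 5.67, 6.16 and 14.4 in LIF (8.75 ± 4.92). The HP groups overlapped one another. Zic2 in LIF HP against LIF LP gave a log2 fold change of -1.71 (SE 0.57, adjusted p = 0.0542, edgeR), and with the replicate number as a block the adjusted p was 0.0411. No neighbouring groups in the order of its means differed.

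Foxd3, the member with most counts, had its highest mean in PO, where libraries held 25.9, 39.0 and 36.1 CPM (33.7 ± 6.90, SD, n = 3). Over pooled counts, PO held 33.9 CPM and LIF LP 34.1. At LP it was 2.81, 15.1 and 21.2 CPM in 2i+LIF (13.0 ± 9.39), 36.3, 24.8 and 8.35 in CH+LIF (23.2 ± 14.1), and 28.6, 23.2 and 35.6 in LIF (29.2 ± 6.19). The first 2i+LIF LP library, which stood apart, was the lowest of these. At HP it was 8.83, 2.73 and 0 CPM in 2i+LIF (3.85 ± 4.52), 27.3, 32.9 and 28.2 in CH+LIF (29.4 ± 3.04), and 9.28, 11.1 and 8.24 in LIF (9.53 ± 1.44). As for Otx2, all CH+LIF HP libraries lay above all libraries of 2i+LIF HP and LIF HP.

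Foxd3 in CH+LIF HP exceeded its 2i+LIF HP level by 2.75 log2 units (SE 0.65, adjusted p = 0.0194, edgeR). This call was lost without 2i+LIF HP replicate 2, 2i+LIF HP replicate 3 or CH+LIF HP replicate 2 (highest adjusted p 0.124, edgeR). LIF HP against CH+LIF HP gave -1.61 (SE 0.61, adjusted p = 0.196, edgeR) for Foxd3, with no overlap of libraries. LIF HP against LIF LP gave -1.60 (SE 0.60, adjusted p = 0.0873, edgeR), again with no overlap. In 2i+LIF the step from LP to HP gave -1.60 (SE 0.65) and in CH+LIF 0.33 (SE 0.56). Neighbours in the order of the Foxd3 means did not differ by the test, although LIF HP and 2i+LIF HP at the low end are each distinct from PO, as given with the PO comparisons.

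Sall2 and Fgf5 did not pass the filter on low counts and have no test with it. Sall2 reached 3.69, 2.61 and 2.99 CPM in PO (3.10 ± 0.547, SD, n = 3). At LP it was 1.40, 1.29 and 1.12 CPM in 2i+LIF (1.27 ± 0.143), 7.27, 0.605 and 0 in CH+LIF (2.62 ± 4.03), and 1.65, 0 and 1.44 in LIF (1.03 ± 0.900). At HP it was 1.86, 4.36 and 2.88 CPM in 2i+LIF (3.03 ± 1.26), 5.84, 5.25 and 0.762 in CH+LIF (3.95 ± 2.78), and 2.58, 1.23 and 0 in LIF (1.27 ± 1.29). Sall2 in 2i+LIF was higher in all HP libraries than in all LP libraries. With no filter on low counts its lowest adjusted p over 15 pairwise comparisons was 0.505 (edgeR).

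Fgf5, the ligand of the set, was near the detection limit everywhere. Its counts were 0, 2 and 1 in PO. At LP they were 0, 2 and 2 in 2i+LIF, 1, 4 and 7 in CH+LIF, and 0, 0 and 2 in LIF. At HP they were 3, 0 and 0 in 2i+LIF, 0, 3 and 1 in CH+LIF, and 0, 0 and 0 in LIF. The CH+LIF LP libraries held 12 of its 28 counts, a level of 2.74 ± 2.43 CPM, and overlapped every other group except LIF HP, where Fgf5 had no counts. With no filter on low counts its lowest adjusted p was 0.360 (edgeR), so no difference in Fgf5 was detectable at this depth.

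**Figure D2:**
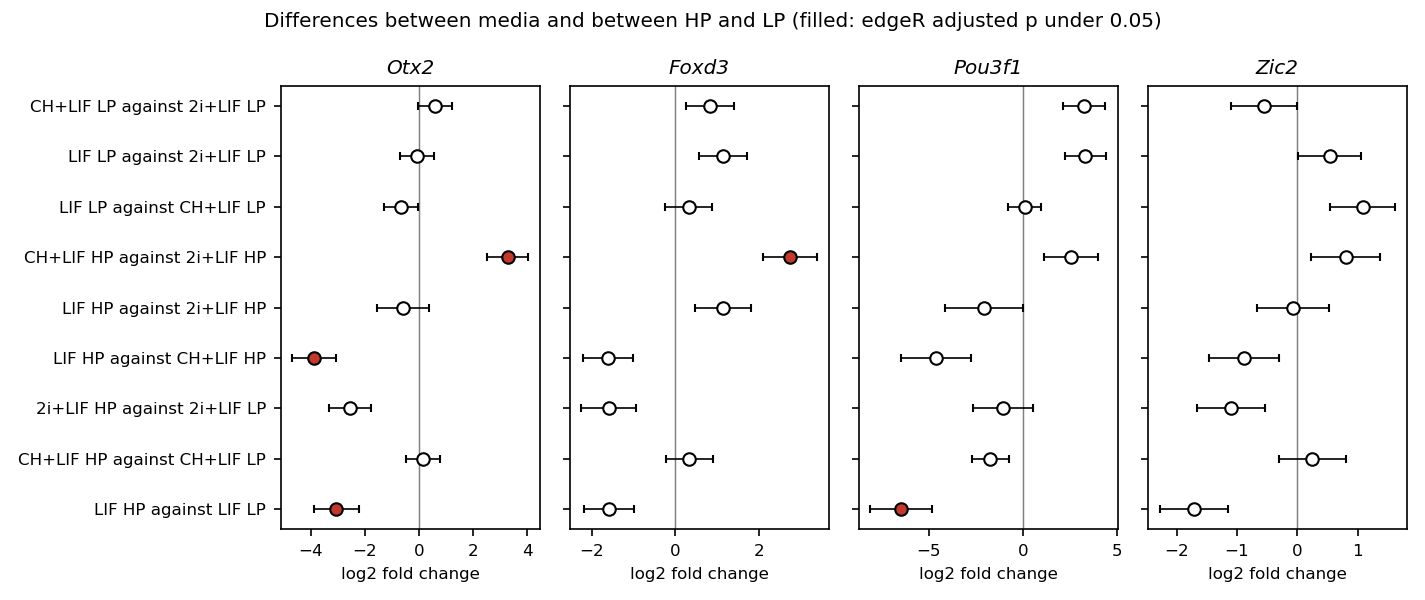
Log2 fold change (horizontal axes, a separate scale per gene) of the 4 tested members in 9 comparisons of media or of HP with LP, with bars of 1 SE. Filled points passed an edgeR adjusted p of 0.05: Otx2 in 3 comparisons, Foxd3 in 1 and Pou3f1 in 1. Fitted fold changes of Pou3f1 in LIF HP, where it had no counts, depend on the prior count.

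Across all comparisons, 4 of the 6 members could be tested, and each of those 4 differed somewhere among the 7 groups (adjusted p = 0.00351 for Otx2, 0.0026 for Pou3f1, 0.0399 for Zic2 and 0.00989 for Foxd3, edgeR), as did 22.6% of all genes tested. Among the 6 groups without PO, Otx2 (0.00322), Pou3f1 (0.0102) and Foxd3 (0.0186) differed and Zic2 (0.140) did not pass, against 13.1% of all genes. Without the 2 libraries that stood apart all 4 passed both tests (highest adjusted p 0.0422, edgeR, for Zic2 over the 6 groups). The Zic2 call over the 7 groups was lost without any one of 7 libraries (highest adjusted p 0.143, edgeR), and that of Foxd3 over the 6 groups without 2i+LIF HP replicate 2 (0.0656). Of the 21 possible pairs of groups, Otx2 differed in 9, Pou3f1 in 6, Foxd3 in 5 and Zic2 in 1.

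At LP no member passed the test between any pair of media. Of all genes tested, 0.00% passed between CH+LIF and 2i+LIF, 0.489% between LIF and 2i+LIF, and 0.0470% between LIF and CH+LIF. Pou3f1 had an unadjusted p under 0.05 in the first and second of these comparisons and no other member did in any. DESeq2 called 0 members in all 3. At HP, 2 of the 4 tested members, Otx2 and Foxd3, were higher in CH+LIF than in 2i+LIF, where 1.10% of all genes were higher and 2.02% passed in either direction. Otx2 alone was lower in LIF than in CH+LIF, where 0.874% of all genes were lower and 1.47% passed in either direction. The make-up of these libraries differed without overlap. Non-unique alignments were 25.6 to 28.3% of entries in CH+LIF HP and 30.3 to 35.4% in LIF HP. Reads without a feature were 16.71 to 22.9% and 8.46 to 16.69%, and ambiguous reads 0.340 to 0.434% and 0.549 to 0.683%. The part of this make-up in the Otx2 difference was not tested. Between LIF HP and 2i+LIF HP no member passed, with 3.78% of all genes passing, none had an unadjusted p under 0.05 and DESeq2 called 0.

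From LP to HP, Otx2 and Pou3f1 fell in LIF, where 4.63% of all genes fell and 9.96% passed in either direction. The make-up of the libraries also moved without overlap in this step: non-unique alignments were 23.1 to 25.6% of entries in LIF LP and 30.3 to 35.4% in LIF HP, reads without a feature 17.0 to 24.6% and 8.46 to 16.7%, and ambiguous reads 0.303 to 0.384% and 0.549 to 0.683%. Their part in the falls of Otx2 and Pou3f1 was not tested. The count of 2 members became 4 with DESeq2 and 4 without the 2 libraries that stood apart. It became 0 without LIF LP replicate 1, LIF HP replicate 1 or LIF HP replicate 3. In 2i+LIF, where 3.67% of all genes passed, no member did. There 2 members had an unadjusted p under 0.05, DESeq2 called 1, and 2 passed without the libraries that stood apart, Otx2 at 0.0108 and Foxd3 at 0.033. In CH+LIF, where 0.00940% of all genes passed, no member did, none had an unadjusted p under 0.05 and DESeq2 called 0.

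The fall of Otx2 in LIF was set directly against its course in CH+LIF. The difference between the 2 media in the step from LP to HP was -3.20 log2 units (SE 1.03), with an adjusted p of 0.212 (edgeR). For Pou3f1, Zic2 and Foxd3 the same interaction missed the threshold too, and all 4 members had an unadjusted p under 0.05. Fitting only these groups called 2 of them, Otx2 at 0.0264 and Foxd3 at 0.038. Between CH+LIF and 2i+LIF no interaction passed, with 2 members at an unadjusted p under 0.05, and between LIF and 2i+LIF none passed, with 0 at an unadjusted p under 0.05. DESeq2 called 0 members in each of these 3 interactions. Over all genes 0.423% passed for LIF against CH+LIF, 0.0188% for CH+LIF against 2i+LIF and 0.150% for LIF against 2i+LIF.

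Comparisons with PO share the same 3 control libraries, so their values are set side by side. Pou3f1 was higher than in PO in CH+LIF LP (log2 fold change 5.03, SE 1.21, adjusted p = 0.0124, edgeR) and in LIF LP (5.11, SE 1.21, adjusted p = 0.00757). PO held 1 pooled count of Pou3f1, so the pooled ratios of 59.7 (95% counting interval 9.87 to 2441) and 66.5 (11.1 to 2710) are loose. Zic2 was higher in LIF LP by 2.14 (SE 0.56, adjusted p = 0.0131, edgeR). Among all genes 4.24% were higher in CH+LIF LP than in PO, with 8.31% passing in either direction, and 5.84% were higher in LIF LP, with 12.0% passing. The LIF LP call of Pou3f1 held in the 28 alternative fits that tested it, and with thinned counts the gene did not pass the filter. That of CH+LIF LP was lost without PO replicate 3 (0.0656) or CH+LIF LP replicate 1 (0.0512), and there Pou3f1 did not pass the filter with thinned counts or with only the groups compared. The Zic2 call was lost without PO replicate 2 (0.0514), PO replicate 3 (0.0659) or LIF LP replicate 1 (0.0737). Without the 2 libraries that stood apart, Pou3f1 exceeded PO by 4.80 log2 units in CH+LIF LP (adjusted p = 0.0158, edgeR) and 4.91 in LIF LP (0.00887), and Zic2 by 2.57 in LIF LP (0.00229). Neural ectoderm markers were also higher in LIF LP, where 4 of 5 tested passed (list median 3.23 log2 units, beside -0.08 over all genes) and their sum was 232 to 260 CPM against 42.7 to 74.0 in PO. In CH+LIF LP 1 of the 5 passed, with a median of 1.84. In 2i+LIF LP 3 of the 5 were higher than in PO, with a median of 1.86 and a sum of 152.65 to 269 CPM. Of all genes 5.06% passed there in either direction. Their part in the Pou3f1 and Zic2 levels was not tested.

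Otx2 and Foxd3 lay below PO at HP in 2i+LIF and in LIF. In 2i+LIF HP Otx2 was below PO by a log2 fold change of -2.69 (SE 0.75, adjusted p = 0.0218, edgeR) and Foxd3 by -2.94 (SE 0.64, adjusted p = 0.00432), where 4.79% of all genes were lower and 10.6% passed in either direction. In LIF HP Otx2 was below PO by -3.28 (SE 0.81, adjusted p = 0.0109, edgeR) and Foxd3 by -1.81 (SE 0.60, adjusted p = 0.0474), where 5.17% of all genes were lower and 12.3% passed in either direction. The libraries of Otx2 and Foxd3 did not overlap those of PO in either group. The Foxd3 call in LIF HP was lost in 15 of the 21 fits that left out 1 library (highest adjusted p 0.139, edgeR), and the Otx2 call in 2i+LIF HP without PO replicate 2, 2i+LIF HP replicate 1 or 2i+LIF HP replicate 3 (highest 0.140). Without the 2 libraries that stood apart, Otx2 lay below PO by -3.04 log2 units in 2i+LIF HP (adjusted p = 0.00226, edgeR) and -3.64 in LIF HP (0.00186), and Foxd3 by -3.06 (0.000279) and -1.97 (0.0115). In 2i+LIF LP no member passed, with 2 at an unadjusted p under 0.05, 1 called by DESeq2 and 5.06% of all genes passing. Without the libraries that stood apart Zic2 passed there, at 0.0212. In CH+LIF HP no member passed, with 2 at an unadjusted p under 0.05, 0 called by DESeq2 and 5.82% of all genes passing.

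A list of 16 further genes of the formative state gave 13 that could be tested, in the same edgeR fit. From LP to HP in LIF the list median was -1.12 log2 units, beside 0.01 over all genes. In that step 5 of the 13 fell, where 4.63% of all genes fell, and none rose. They were Dnmt3l (-6.37), a cofactor of the de novo DNA methyltransferases, Utf1 (-4.55), a chromatin protein of pluripotent cells, Foxp1 (-3.84), a forkhead factor, Etv4 (-3.22), an ETS factor induced by ERK, and Tcf15 (-2.35), a basic helix-loop-helix factor that primes ES cells for differentiation. Alternative fits called 5 to 7 of the 13 lower. In 2i+LIF 3.67% of all genes passed in either direction. There 4 of the list fell, with a median of -0.25: Utf1 (-4.53), Dnmt3l (-3.80), Tcf15 (-2.38) and Etv4 (-1.82). Lef1 (3.68), a TCF/LEF factor and Wnt target, rose. Its call was lost with DESeq2 and without any 2i+LIF LP replicate or 2i+LIF HP replicate 2 or 3. Fitting only the 2i+LIF groups gave 1 fall in place of 4. In CH+LIF none of the 13 passed, with a median of -0.45, where 1 gene of all tested passed.

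Between CH+LIF and 2i+LIF at HP the list median was 0.47, beside -0.01 over all genes. Higher in CH+LIF were 3 of the 13 formative genes, where 1.10% of all genes were higher, and none was lower. These were Utf1 (4.76), Dnmt3l (3.63) and Tcf15 (2.81), of which Tcf15 missed the threshold without 2i+LIF HP replicate 3. In LIF HP 0.874% of all genes were lower than in CH+LIF HP. Of the list 3 were lower and none was higher, with a median of -0.98: Dnmt3l (-6.05), Utf1 (-4.49) and Etv4 (-3.15). The first 3 became 5 without the 2 libraries that stood apart, and the second 3 became 5 when only those groups were fitted. Utf1 held 82.0 ± 11.0 CPM in CH+LIF HP against 3.01 ± 2.17 in 2i+LIF HP and 3.63 ± 2.91 in LIF HP (SD, n = 3). LIF HP against 2i+LIF HP gave 1 higher, Tcf15 (2.20), and 3 lower, Lef1 (-5.23), Grhl2 (-3.04) and Etv4 (-1.95). Of all genes 3.78% passed there in either direction. The 3 became 1 without 2i+LIF HP replicate 2 or LIF HP replicate 3, and the call of Tcf15 was lost without 2i+LIF HP replicate 1 or 3 or any LIF HP replicate. At LP, LIF against 2i+LIF gave 1 higher, Foxp1 (4.29), and 1 lower, Grhl2, where 0.489% of all genes passed in either direction. Grhl2, a grainyhead factor, held 0.160 ± 0.278 CPM in LIF and 7.62 ± 2.76 in 2i+LIF. The Grhl2 call was lost without 2i+LIF LP replicate 1 or any LIF LP replicate, and that of Foxp1 when only these groups were fitted (0.0541). No list gene passed in the other 2 comparisons at LP.

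**Figure D3:**
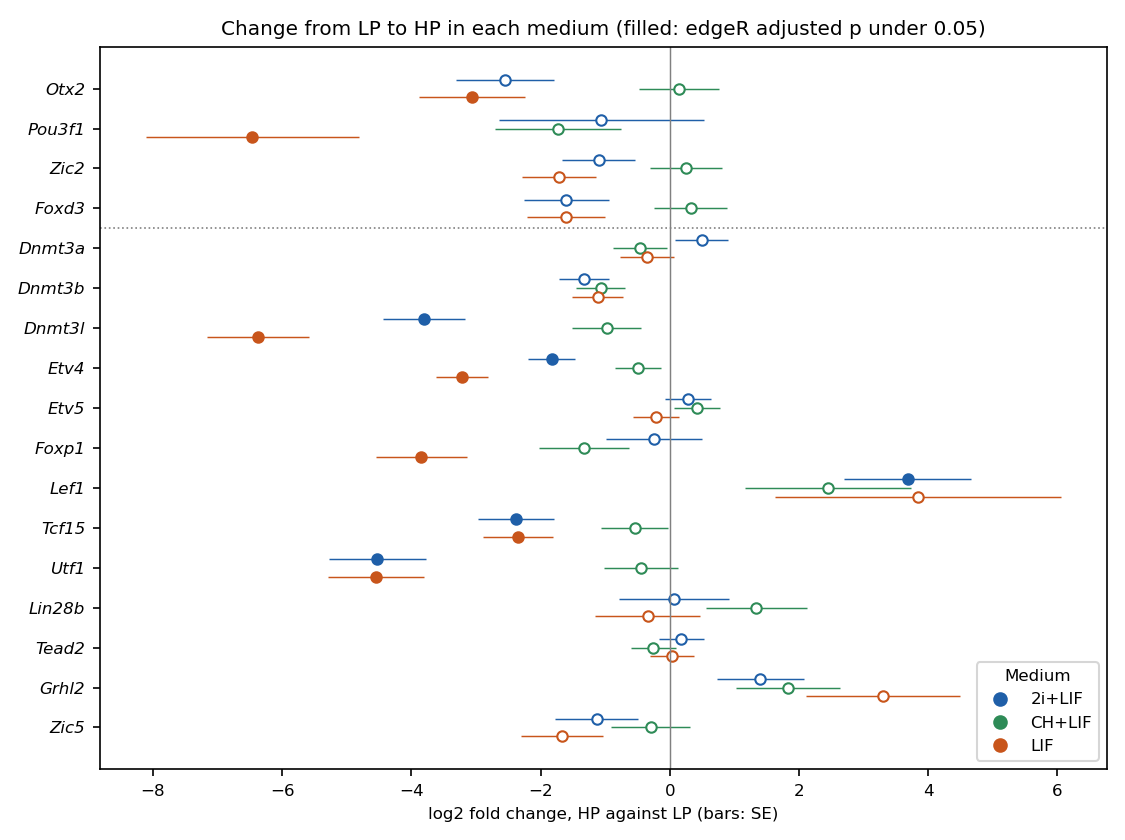
Log2 fold change of HP against LP (horizontal axis) in each medium for the 4 tested members, above the dotted line, and the 13 tested formative genes, below it, with bars of 1 SE. Filled points passed an edgeR adjusted p of 0.05; in CH+LIF (green) none did, while 2 members and 5 further genes passed in LIF (orange). Fitted values against a group without counts, Pou3f1 in LIF HP and Lef1 in LIF LP, depend on the prior count.

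The primed and gastrula list held 13 genes, of which 6 could be tested. In 2i+LIF 3 fell from LP to HP: the Nodal co-receptor Tdgf1 (-3.41) and the Nodal antagonists Lefty2 (-4.23) and Lefty1 (-2.79). T (4.21), the mesoderm factor Brachyury, rose, and the list median was -2.18. In that step 3.67% of all genes passed in either direction. In LIF Lefty1 (-2.66) and Lefty2 (-1.88) fell, where 4.63% of all genes fell, and none rose, with a median of -0.13. In CH+LIF none passed, where 0.00940% of all genes did. At HP, Tdgf1, Nodal, Lefty1 and Lefty2 were higher and T lower in CH+LIF than in 2i+LIF. The same 4 were higher and T lower in LIF than in 2i+LIF. Both sets of values share the 2i+LIF HP libraries, and 2.02% and 3.78% of all genes passed in either direction. The call of T was lost in 18 of 29 alternative fits for CH+LIF (highest adjusted p 0.250, edgeR; DESeq2 0.225) and in 11 of 29 for LIF (highest 0.174; DESeq2 0.151). That of Nodal was lost in 6 for CH+LIF (highest 0.212) and, for LIF, without 2i+LIF HP replicate 2 (0.0549), and that of Lefty1 for LIF without 2i+LIF HP replicate 1 or 3. None passed between LIF HP and CH+LIF HP, where 1.47% of all genes did. The falls in 2i+LIF became 1 when only these groups were fitted, the rise of T was lost in 6 of 29 alternative fits (DESeq2, only these groups, and without 2i+LIF LP replicate 1 or 3 or 2i+LIF HP replicate 2 or 3; highest adjusted p 0.148, edgeR), and the fall of Lefty1 in 2i+LIF missed the threshold without 2i+LIF HP replicate 3 (0.0577). The fall of Lefty2 in LIF was lost in 8 of the 21 fits without 1 library. Tdgf1 held 549 ± 106 CPM in LIF HP and 472 ± 127 in CH+LIF HP, against 36.5 ± 27.7 in 2i+LIF HP (SD, n = 3).

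Of 15 relatives of the members in their own families, 5 could be tested. From LP to HP in LIF 2 of these fell, Sall3 (-2.23) and Sall4 (-1.19), where 4.63% of all genes fell. The Sall4 call was lost in 14 of the 21 fits without 1 library (highest adjusted p 0.215, edgeR), and the 2 became 4 without the 2 libraries that stood apart. The ligand Fgf4, which starts ERK signalling in ES cells, was higher at HP in LIF than in 2i+LIF by 1.97 log2 units, at 225 ± 20.9 against 57.1 ± 25.3 CPM (SD, n = 3). Otx1 had 54 counts in all and Pou3f2, Pou3f3 and Pou3f4 had 6, 25 and 26. The naive list, all 14 genes of which were tested, gave 0 falls in LIF from LP to HP, where 4.63% of all genes fell. In 2i+LIF it gave 1 rise, Dppa3 (5.25), and 1 fall, Tbx3 (-1.91), where 3.67% passed in either direction. Against PO, 2, 6 and 5 of the 14 were lower at LP in 2i+LIF, CH+LIF and LIF. At HP 6, 2 and 4 were lower in the same order, and 1, Dppa3 in 2i+LIF, was higher. Of all genes 5.06%, 8.31% and 12.0% passed against PO at LP and 10.6%, 5.82% and 12.3% at HP, in either direction.

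Genes that report the 2 pathways targeted by the media were counted beside the members. Of 10 tested ERK targets, 8 fell from LP to HP in LIF, where 4.63% of all genes fell, 5 fell in 2i+LIF, where 3.67% of all genes passed in either direction, and 0 passed in CH+LIF, where 0.00940% of all genes did. The list medians of the fitted log2 fold changes were -2.73, -1.81 and -0.25, beside 0.01 over all genes in LIF and in 2i+LIF. Fitting only the 2i+LIF groups left 0 of the 5. Against PO, 4, 8 and 7 of the 10 were higher at LP in 2i+LIF, CH+LIF and LIF (medians 1.97, 2.46 and 3.15). At HP 2, 6 and 0 were higher in the same order (medians 0.88, 2.16 and -0.04), and none was lower. Of all genes 5.06%, 8.31% and 12.0% passed against PO at LP and 10.6%, 5.82% and 12.3% at HP, in either direction. Dusp6, a phosphatase of ERK, held 27.6 ± 17.1 CPM in LIF LP and 0.411 ± 0.711 in LIF HP, against 38.0 ± 4.22 and 37.1 ± 5.75 in CH+LIF LP and HP (SD, n = 3). At HP 3 ERK targets were higher in CH+LIF than in 2i+LIF (list median 1.37, with 1.10% of all genes higher), and 5 were lower in LIF than in CH+LIF (list median -2.33, with 0.874% of all genes lower). The 3 became 1 without 2i+LIF HP replicate 3 or CH+LIF HP replicate 3, and the 5 became 3 without CH+LIF HP replicate 3 or any LIF HP replicate. Etv4 and Etv5 stand in both the ERK and the formative list. Lef1 stands in the formative and the Wnt list, and T in the Wnt, primed and mesoderm lists, so their rises in 2i+LIF are counted in each. Of 8 Wnt targets, 6 rose from LP to HP in 2i+LIF and 3 in LIF, and 0 passed in CH+LIF. Of all genes 3.67%, 9.96% and 0.00940% passed there in either direction, and the list medians were 3.65, 3.69 and 2.41. Some of these fitted values are against a group without counts and depend on the prior count. The 6 became 1 without 2i+LIF HP replicate 2. Whether either pathway bears on the levels of Otx2, Pou3f1 or Foxd3 was not tested.

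Markers of other cell types also moved with some of these groups. Neural ectoderm markers, with 8 of 8 detected in LIF LP, summed to 232 to 260 CPM there, and with 6 of 8 detected to 91.1 to 152.02 CPM in LIF HP, where Neurod1 and Hes5 were at 0. In CH+LIF the same sums were 147.3 to 171.0 CPM at LP and 75.9 to 83.7 at HP, again without overlap. In 2i+LIF they were 152.65 to 269 CPM at LP (median 166) and 42.2 to 157.1 at HP (median 70.9). Trophectoderm markers summed to 123 to 136 CPM in 2i+LIF HP and 132 to 180 in LIF HP with 6 of 7 detected, and to 42.5 to 59.4 in CH+LIF HP with 4 of 7 detected. At LP the sums were 63.2 to 71.5 CPM in 2i+LIF, 40.2 to 88.1 in CH+LIF and 32.5 to 66.1 in LIF, so LP and HP did not overlap in 2i+LIF or in LIF. From LP to HP 2 of 4 tested markers rose in 2i+LIF, Krt18 (3.60) and Cdx2 (4.48), and 1 in LIF, Tfap2c (1.70). In those steps 3.67% and 9.96% of all genes passed in either direction. Elf5 was at 0 in every group. In PO the trophectoderm sum was 121.3 to 186.2 CPM, overlapping 2i+LIF HP and LIF HP. A single gene, Tfap2c, carried most of the sum in LIF HP, at 142.1 ± 17.8 CPM (SD, n = 3), and it held 96.7 ± 29.9 CPM in PO and 51.6 ± 23.5 in 2i+LIF HP. Of the 4 tested markers, 2 had positive and 2 negative fold changes in LIF HP against CH+LIF HP. Only Tfap2c passed, where 1.47% of all genes passed in either direction. Mesoderm markers summed to 19.2 to 40.3 CPM in 2i+LIF HP, with Tbx6 and Foxf1 at 0, and to at most 9.73 CPM in CH+LIF HP and 3.09 in LIF HP. Whether such cells were present was not tested, nor was their part in the levels of Otx2, Pou3f1, Zic2 and Foxd3.

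For each tested member, the genes with the most similar course over the 21 libraries were found by the mean absolute difference of gene-centred log2 CPM. Nearest to Otx2 were BC028528 (0.57), Epb41l4a (0.62) and Lgr4 (0.64), against a median of 1.28 over the other 10642 genes. Nearest to Pou3f1 were Ogfrl1 (0.53), Pdk1 (0.55) and Spn (0.56), against 1.13. Nearest to Zic2 were Kif15 (0.42), Kif20b (0.44) and Zfp280d (0.44), against 0.87. Nearest to Foxd3 were Socs3 (0.46), a STAT3-induced inhibitor of LIF signalling, Agtpbp1 (0.51) and Slc7a3 (0.56), against 1.14. The nearest genes depended on the measure: with 7 group means in place of 21 libraries, none of the 3 was shared for Otx2, Pou3f1 or Zic2 and 1 for Foxd3.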

How the data were processed

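The authors deposited 1 table per library of whole-number counts per Ensembl gene ID, for 31053 IDs and 5 closing entries. The submitters' processing notes name bcl2fastq, STAR 2.6.0a, HTSeq and mm10; the annotation, strand setting and filters are not given in the sources used here, so reads of overlapping antisense genes cannot be told apart. Library sizes used gene counts only, which made up 47.4 to 62.0% of a library's entries; reads without a feature made up 8.46 to 25.8%, ambiguous reads 0.179 to 0.683% and non-unique alignments 20.8 to 35.4%. Symbols came from GENCODE M21 on GRCm38 (42 IDs without a symbol). The members and gene lists were chosen with earlier results of these data known. From those lists 2 genes are not reported here.

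All 21 libraries entered 1 edgeR 4.0.16 quasi-likelihood fit in R 4.3.3 with a coefficient per group, TMM scaling and filterByExpr, which left 10643 genes and 14 residual degrees of freedom. Each test was two-sided and adjusted by Benjamini-Hochberg over all genes, in each of 15 pairwise comparisons, 3 interactions and 2 joint tests, and for the order of a member's levels in all 21 pairs of groups; the threshold was 0.05. The SE is the absolute log2 fold change divided by the square root of F. CPM used TMM-scaled library sizes, and log2 CPM a prior count of 2. Floors of 3 counts and 95% counting intervals used pooled counts without TMM.

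Named genes were the members, the 3 genes nearest in course to each tested member, and listed genes that passed in a comparison described or were counted in a list. Alternatives were DESeq2 1.42.0, DESeq2 size factors, no filter, a replicate block, counts thinned to 1132126 per library, removal of mitochondrial genes and Gm42418, omission of the 2 libraries that stood apart, fits of only the groups compared, each library left out in turn, and for the nearest genes a prior count of 0.5 or group means. Replicate numbers carry no stated pairing: deviations of same-numbered libraries correlated above 0.1 in all 3 pairs for 1 of 15 comparisons, PO with 2i+LIF LP (r = 0.397, 0.345, 0.179). Here 0 members passed with or without the block. Every pair of replicates differed beyond sampling noise (chi-square per degree of freedom at least 4.82). Steps were tested on simulated data.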

Additional observations from a re-analysis of the deposited data

Results flagged for a closer look

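No member met a rule for a closer look: groups of 3 were not searched for outlying libraries, and no interaction of medium with HP against LP passed the test for Otx2, Pou3f1, Zic2 or Foxd3. In the lists described beside them, 8 genes had steps from LP to HP that differed between media in a test of the difference itself (edgeR quasi-likelihood test with Benjamini-Hochberg adjustment). Of all genes, 0.0188% passed for CH+LIF against 2i+LIF, 0.150% for LIF against 2i+LIF and 0.423% for LIF against CH+LIF.

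Tdgf1, the Nodal co-receptor, had a step of -3.41 log2 units in 2i+LIF, where it fell, and of 0.06 in CH+LIF and 0.12 in LIF, which did not pass. The step in CH+LIF lay above that in 2i+LIF by 3.47 (adjusted p = 0.0219, edgeR) and the step in LIF by 3.53 (adjusted p = 0.00681). The first of these was lost in 7 of 29 alternative fits (highest adjusted p 0.148, edgeR), and the second held in all 29.

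Of the others, 3 are formative genes whose step in LIF lay below that in CH+LIF. The difference was -5.40 log2 units for Dnmt3l (adjusted p = 0.0103, edgeR), -2.72 for Etv4 (0.0188) and -4.10 for Utf1 (0.0459). The Dnmt3l call was lost without CH+LIF LP replicate 3 (0.0504) or LIF HP replicate 2 (0.0638). That of Etv4 was lost in 5 fits (highest 0.0750) and that of Utf1 in 12 (highest 0.140), each of them a fit without 1 library. The count of 3 became 0 without CH+LIF LP replicate 3.

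Etv4 is also an ERK target, and 3 further ERK targets had a step in LIF below that in CH+LIF. The difference was -5.75 log2 units for Dusp6, a phosphatase of ERK (adjusted p = 0.0301, edgeR), -6.11 for Egr1, an immediate early factor (0.0459), and -2.96 for Etv1, an ETS factor (0.0474). These calls were lost in 8, 15 and 18 of 29 alternative fits (highest adjusted p 0.0960, 0.165 and 0.156, edgeR). The count of 4 ERK targets became 0 without CH+LIF LP replicate 3, CH+LIF HP replicate 2, CH+LIF HP replicate 3 or LIF HP replicate 3.

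Tfap2c, an AP-2 factor in the trophectoderm list, had a step in LIF above that in CH+LIF by 2.38 log2 units (adjusted p = 0.0477, edgeR), a call lost in 18 of 29 alternative fits (highest 0.253). Its level was 43.6 ± 14.9 CPM in LIF LP and 142.1 ± 17.8 in LIF HP, against 52.9 ± 26.1 and 33.0 ± 2.96 in CH+LIF (SD, n = 3).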

How the results depend on the processing

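Counts of members that passed are given here by setting. With DESeq2 the count was 1 for HP against LP in 2i+LIF, 4 in LIF and 1 for 2i+LIF LP against PO. With no filter on low counts it was 1 for HP against LP in 2i+LIF and 4 in LIF. With counts thinned to the smallest library it was 1 for that step in 2i+LIF and 1 in LIF, 0 for CH+LIF LP against PO and 1 for LIF LP against PO. Without the 2 libraries that stood apart it was 2 for LIF HP against CH+LIF HP, 2 and 4 for the step in 2i+LIF and LIF, 1 for 2i+LIF LP against PO, and 1 for the interaction of LIF against CH+LIF with HP against LP. With only the groups compared it was 2 for LIF HP against CH+LIF HP, 0 for CH+LIF LP, 1 for 2i+LIF HP and 1 for LIF HP against PO, and 2 for that interaction. The replicate block gave 3 in place of 2 for HP against LP in LIF, Zic2 joining at 0.0411, and changed no other count.

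Leaving out 1 library at a time, counts ran from 0 to 2 for CH+LIF HP against 2i+LIF HP, 0 to 1 for LIF HP against CH+LIF HP, 0 to 1 and 0 to 4 for the step from LP to HP in 2i+LIF and LIF, and 3 to 4 and 2 to 3 for any difference among 7 and 6 groups. Against PO they ran from 0 to 1 for 2i+LIF LP, 0 to 1 for CH+LIF LP, and 1 to 2 for LIF LP, 2i+LIF HP and LIF HP.

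Without mitochondrial genes and Gm42418, mean levels were 21.2 CPM for Otx2 in CH+LIF LP, 34.7 and 11.2 CPM for Foxd3 in CH+LIF HP and LIF HP, and 1.54 CPM for Sall2 in 2i+LIF LP. With thinned counts they were 0.535 CPM for Fgf5 and 4.06 CPM for Sall2 in PO, and 0.910 CPM for Sall2 in 2i+LIF LP. Of the 3 genes nearest to each member, group means shared 0 for Otx2, Pou3f1 and Zic2 and 1 for Foxd3, and a prior count of 0.5 shared 1 for Pou3f1. No called difference of a member reversed in direction under any alternative run. With 1132126 to 3783043 gene counts per library, Fgf5 and Sall2 did not pass the filter on low counts, and Pou3f1 rests on 72 counts.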
